A study of Mus musculus with 6 samples.

Results

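A set of 7 genes of calcium, cAMP and kinase signalling was followed in the mouse hippocampus: Prkcd, Pde7b, Pde1b, Ppp1r1b, Ryr1, Camk2n1 and Ncald. They were chosen by symbol from the authors' table of 475 genes listed as changed, so each is in it by choice. RNA sequencing covered 6 C57Bl/6 mice aged 4 months, 3 in each group. The CI-994 group was injected every day with CI-994, a benzamide that inhibits class I histone deacetylases, at 30 mg/kg, and the VEH group had daily injections of its vehicle. All 6 mice, treated or not, had been fear conditioned to a context, had recalled the memory there and had gone through spaced extinction training. Whole hippocampi of 1 hemisphere were taken 1 h after the last extinction session. The comparison asks which transcripts differ in the hippocampus when the inhibitor accompanies extinction.

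Cyclic AMP is made by adenylyl cyclases, acts through protein kinase A and is broken down by phosphodiesterases. Calcium enters through the cell membrane or leaves internal stores through ryanodine and inositol trisphosphate receptors, and it is read by calmodulin and related sensors that switch kinases, phosphatases and some of the phosphodiesterases. In hippocampal neurons these routes couple synaptic activity to plasticity and transcription.

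The table gives each gene a single value for a group, in arbitrary units, with the 3 mice of a group combined by the authors. No value per mouse, error or depth comes with it, so none is given below, and the p-values are those of the authors' deposited table, whose header does not call them adjusted. The sources used here do not say whether the unit is scaled to transcript length, so values are compared between groups and not between genes. Directions follow the labelled group values as log2(CI-994/VEH). The deposited log2 column, headed as CI-994 against VEH, equals the inverse ratio in 475 of 475 genes within 0.0001, and if the group labels are exchanged every direction below turns around. Sex-linked transcripts also differed between the groups. The transcripts of Xist, which is expressed from the inactive X chromosome, were at 25.3 units in CI-994 and 8.46 units in VEH, and those of the Y-linked Ddx3y at 0.0503 units in CI-994 and 7.73 units in VEH, and the sex of the mice is not stated in the labels. A difference in sex between the groups cannot be told apart from CI-994 in the combined values below, and its part in them was not tested.

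Of the 7 genes, 5 were lower and 2 were higher in CI-994. The kinase Prkcd fell by 43.4%, the phosphodiesterase Pde7b fell by 40.8% and its relative Pde1b fell by 28.6%, the calcium sensor Ncald fell by 29.0% and the kinase inhibitor Camk2n1 fell by 20.1%. The phosphatase inhibitor Ppp1r1b was 1.38-fold higher, and the calcium release channel Ryr1 was 2.00-fold higher. Lower genes made up 58.1% of the whole table and higher genes 41.9%, so a division of 5 to 2 lies near the background. The deposited p was at most 0.01 for 6 of the 7, the exception being Camk2n1, against 49.7% of the table. As the 7 were picked with these results in view, neither count was tested.

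**Figure D1:**
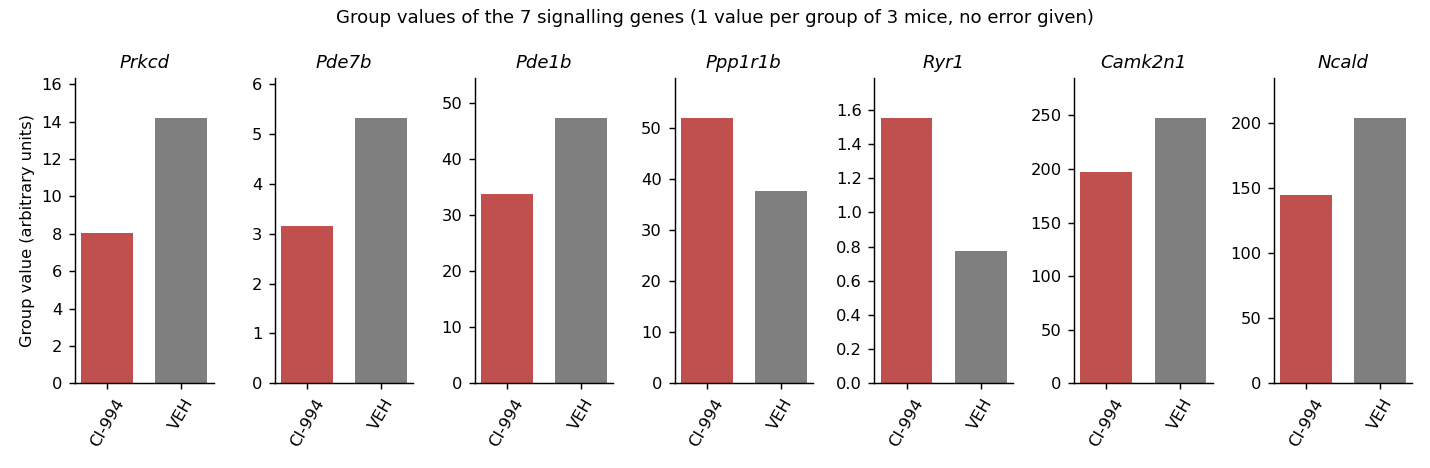
Group value of each of the 7 genes, in arbitrary units on axes that start at 0, with CI-994 left of VEH. Each bar is the authors' 1 value for 3 mice and has no error; the CI-994 bar is the shorter one in Prkcd, Pde7b, Pde1b, Camk2n1 and Ncald and the taller one in Ppp1r1b and Ryr1.

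Promoter sequences are shown for the members that have an entry in RefSeq's promoter table (GRCm38.p6), 4 of the 7. Prkcd, Pde7b and Pde1b among them were lower in CI-994 and Ryr1 was higher. Ppp1r1b, Camk2n1 and Ncald have no entry. Each sequence holds the 250 bases before an annotated start, read 5′ to 3′ on the gene's own strand, with every match to a searched motif in capitals.
Prkcd: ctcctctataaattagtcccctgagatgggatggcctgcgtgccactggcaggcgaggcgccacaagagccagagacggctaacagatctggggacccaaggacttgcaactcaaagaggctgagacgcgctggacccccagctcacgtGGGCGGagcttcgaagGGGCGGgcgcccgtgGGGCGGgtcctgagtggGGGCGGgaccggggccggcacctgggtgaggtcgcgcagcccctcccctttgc
Pde1b: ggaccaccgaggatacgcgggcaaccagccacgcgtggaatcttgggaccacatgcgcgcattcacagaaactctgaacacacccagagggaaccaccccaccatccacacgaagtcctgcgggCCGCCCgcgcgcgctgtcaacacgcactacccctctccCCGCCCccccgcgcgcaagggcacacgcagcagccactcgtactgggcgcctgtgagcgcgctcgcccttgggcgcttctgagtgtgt
Pde7b: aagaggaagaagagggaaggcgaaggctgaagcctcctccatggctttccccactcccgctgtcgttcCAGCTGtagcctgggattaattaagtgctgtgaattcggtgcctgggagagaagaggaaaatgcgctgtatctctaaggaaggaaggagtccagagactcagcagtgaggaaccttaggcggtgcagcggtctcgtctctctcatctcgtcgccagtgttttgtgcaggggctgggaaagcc
Ryr1: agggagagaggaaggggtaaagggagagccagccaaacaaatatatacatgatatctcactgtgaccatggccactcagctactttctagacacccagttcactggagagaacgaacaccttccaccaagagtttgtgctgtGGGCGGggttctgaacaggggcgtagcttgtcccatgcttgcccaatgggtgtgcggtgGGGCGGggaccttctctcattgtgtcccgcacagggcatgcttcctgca
The windows are chr14:30626209-30626458 on the minus strand for Prkcd, chr15:103502784-103503033 on the plus strand for Pde1b, chr10:20548329-20548578 on the minus strand for Pde7b and chr7:29125152-29125401 on the minus strand for Ryr1. The only Pde7b window belongs to a start 177 kb inside the gene and not to its outermost one. The motifs searched on both strands were the cAMP response element (TGACGTCA), its core (TGACG, which the full element contains), the AP-1 site (TGANTCA), the GC box (GGGCGG) and an E-box (CAGCTG), over these bases and the 50 that follow the start.

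The capitals in Prkcd, Pde1b and Ryr1 mark GC boxes, which bind Sp family factors. Prkcd held 4 of them, Pde1b 2, both on the opposite strand and therefore printed as CCGCCC, and Ryr1 2. Among the 32851 windows of that length, 35.7% held a GC box, and the motif stood in genes of both directions here. The capitals in Pde7b mark 1 E-box, found in 16.3% of all windows. The full cAMP response element was in 0 of the 4 windows and in 1.79% of all, its core in 0 of 4 and 20.8%, and the AP-1 site in 0 of 4 and 7.81%. These letters are thus not in these windows, which says nothing about binding. The GC content before the start was 67.6% in Prkcd and 67.2% in Pde1b, against 55.2% in Pde7b, 54.8% in Ryr1 and a median of 52.4% over all windows.

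The kinase gene Prkcd had a log2 ratio close to that of the phosphodiesterase gene Pde7b, and no error is at hand to order them. It encodes protein kinase C delta, an isoform activated by diacylglycerol without calcium, and in rodent brain its transcript is best known from thalamic relay nuclei. It was at 8.04 units in CI-994 and 14.2 units in VEH (log2 ratio -0.82; p = 0.000213 in the authors' deposited table). By the size of its fall it ranked 57 of the 276 lower genes, and by p-value 90 of all 475. It was the 1 gene listed among 12 protein kinase C and D genes. Camk2n1, an inhibitor of calcium/calmodulin-dependent kinase II that is abundant in forebrain neurons, was at 198 units in CI-994 and 247 units in VEH (log2 ratio -0.32; p = 0.0441 in the authors' deposited table). It ranked 248 of the 276 lower genes by size and 438 of the 475 by p-value, close to the edge at 0.05 that all listed genes pass. None of the other 13 genes on the list of calmodulin-dependent kinases and their inhibitors, the kinase II subunits among them, was in the table.

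The phosphodiesterases that fell differ in how they are controlled. Pde1b is activated by calcium and calmodulin and degrades both cAMP and cGMP, whereas Pde7b is specific for cAMP. Pde7b was at 3.15 units in CI-994 and 5.31 units in VEH (log2 ratio -0.76; p = 0.00438 in the authors' deposited table). Pde1b was at 33.8 units in CI-994 and 47.3 units in VEH (log2 ratio -0.49; p = 0.00184 in the authors' deposited table). The larger fall, in Pde7b, thus came with the larger p-value. They ranked 66 and 144 of the 276 lower genes by size, and the other 17 phosphodiesterases on the list were not in the table. Both genes are also expressed strongly in the striatum of rodents.

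Ppp1r1b, better known as DARPP-32, inhibits protein phosphatase 1 once protein kinase A has phosphorylated it, and it is a hallmark of striatal medium spiny neurons. It was at 52.0 units in CI-994 and 37.8 units in VEH (log2 ratio 0.46; p = 0.00626 in the authors' deposited table), and it ranked 170 of the 199 higher genes by size. Its relative Ppp1r1a, which inhibits the same phosphatase under the same kinase, was listed in the other direction, at 48.8 units in CI-994 and 63.6 units in VEH (log2 ratio -0.38; p = 0.0264 in the authors' deposited table). These were the 2 listed genes of 16 phosphatases and phosphatase inhibitors. In GENCODE M21, 460 exon bases of Ppp1r1b (15.7%) overlap exons of 1700003D09Rik on the opposite strand. The sources used here do not give strand handling, so reads of both genes on those shared bases cannot be told apart.

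Ryr1 had the largest ratio of the 7. It encodes a calcium release channel of the endoplasmic reticulum, the main ryanodine receptor of skeletal muscle, present at lower levels in neurons. It was at 1.55 units in CI-994 and 0.775 units in VEH (log2 ratio 1.00; p = 0.000135 in the authors' deposited table). It was the only member below 1 unit in a group, it ranked 80 of the 199 higher genes by size and 86 of the 475 by p-value, and with 1 unit added to both values its log2 ratio was 0.52. Ryr2, Ryr3 and the inositol trisphosphate receptors were not in the table. The list of calcium release channels, pumps and exchangers had 2 further genes listed, both lower, as were 58.1% of the whole table. They were Slc8a2, a sodium/calcium exchanger (log2 ratio -0.42), and Orai2, a store-operated calcium channel (-0.35). Of the Ryr1 exon bases, 864 (3.96%) overlap the antisense gene Gm26604.

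Ncald encodes neurocalcin delta, a membrane-associated calcium sensor of neurons. It was at 145 units in CI-994 and 204 units in VEH (log2 ratio -0.49; p = 0.00422 in the authors' deposited table) and ranked 140 of the 276 lower genes by size. Other calcium-binding proteins were lower beside it. Pcp4, a small modulator of calmodulin, was at 133 units in CI-994 and 201 units in VEH (log2 ratio -0.59; p = 0.000432 in the authors' deposited table). The buffers Calb2 (log2 ratio -0.52) and Calb1 (-0.35) and the potassium channel subunit Kcnip4 (-0.48) were also listed as lower. The 5 listed genes of the 26 sensors and calcium-binding proteins were lower, against 58.1% of the table, and 2 of them, Ncald and Pcp4, had a deposited p of at most 0.01. Calb1 and Pcp4 are also markers of dentate and of CA2 and CA3 neurons, and Calb2 of thalamic, habenular and interneuron types, as given below. Antisense and same-strand genes overlap 347 (Gm28221, 4.04%) and 286 (Gm49397, 3.33%) of the Ncald exon bases.

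**Figure D2:**
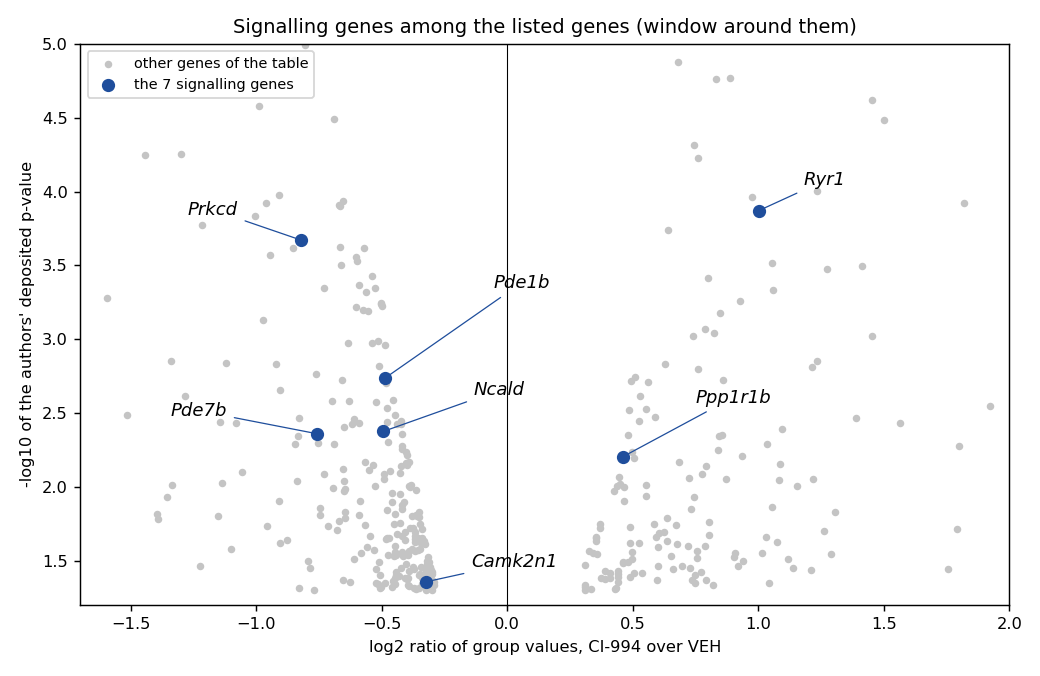
Log2 ratio of the group values (CI-994 over VEH, horizontal) against -log10 of the authors' deposited p-value (vertical) for the 7 genes in blue and other listed genes in grey; 76 of the 475 genes lie outside the axes shown. Ryr1 and Prkcd stand highest of the 7, at log2 ratios of 1.00 and -0.82, and Camk2n1 lies at the lower edge.

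Over the wider pathway, most of the listed genes were lower, though not among those with the smallest p-values. Of 153 genes on 9 lists of cyclases, phosphodiesterases, kinases, phosphatases, calcium transport, calcium sensors and the MAP kinase pathway, 22 were in the table, 17 lower and 5 higher. Their median log2 ratio was -0.40, against -0.34 over all 475 genes. Without the 7 genes, 12 were lower and 3 higher, or 80.0% lower against 58.1% of the table. This is a description, with no test. At a deposited p of at most 0.01 the division was 7 lower and 4 higher, beside 124 lower and 112 higher in the whole table. At p up to 0.001 it was 2 lower and 3 higher, while 43.9% of all listed genes at that p were lower.

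Adenylyl cyclases, which make cAMP, were divided. Adcy1, the neuronal cyclase stimulated by calmodulin, was at 115 units in CI-994 and 156 units in VEH (log2 ratio -0.45; p = 0.0251 in the authors' deposited table), and Adcy2 was also lower (-0.30). Adcy6, a cyclase inhibited by calcium, was higher, at 8.83 units in CI-994 and 6.39 units in VEH (log2 ratio 0.47; p = 0.0124 in the authors' deposited table). The remaining 10 of 13 cyclase genes were not listed. No catalytic or regulatory subunit of protein kinase A was in the table. Of its partners, the inhibitor Pkia (log2 ratio -0.30) and the anchoring protein Akap7 (-0.43) were lower, and the anchoring protein Akap13 was higher, at 5.98 units in CI-994 and 3.84 units in VEH (0.64; p = 0.000182 in the authors' deposited table). In the MAP kinase pathway, Rasgrf2, a Ras activator driven by calcium and calmodulin, was lower (log2 ratio -0.45), and the phosphatase Dusp1, an immediate early gene, was higher (0.93). In all, 131 of the 153 genes were not listed.

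**Figure D3:**
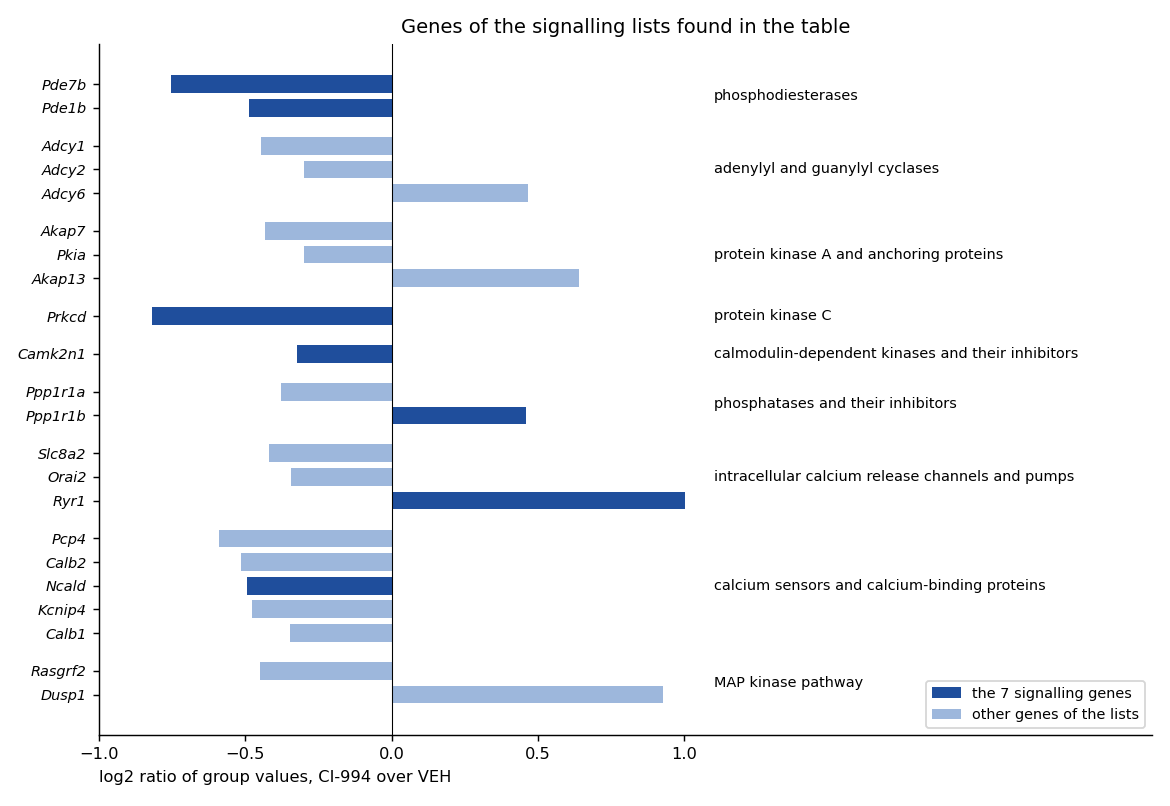
Log2 ratio (CI-994 over VEH) of the 22 listed genes of the signalling lists, grouped by list, with the 7 genes dark and the others light. Bars left of 0 are lower in CI-994, as were 58.1% of the whole table. The calcium sensors lie wholly on that side. So do the phosphodiesterases, protein kinase C and the calmodulin-dependent kinase list, where every bar is one of the 7 genes. In all, 5 bars point right, Ryr1 the longest at 1.00.

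Several of the 7 are known markers of other cells or regions, so the marker lists were read beside them. In a bulk sample, fewer cells of a type and less RNA per cell cannot be told apart. The hippocampal markers listed were mostly lower, as were 58.1% of all genes in the table. All 17 listed of 24 dentate granule cell markers were lower, with a median log2 ratio of -0.87 and a summed value of 253 units in CI-994 and 479 units in VEH, and C1ql2 (-2.32) and Prox1 (-0.87), the defining transcription factor of these cells, were among them. The 4 listed CA1 markers of 12 were lower, and of the 6 listed CA2 and CA3 markers of 16, 5 were lower and 1, Prss23, was higher. Calb1, Akap7 and Pcp4 stand both on a signalling list and on one of these marker lists. The part of these cells in the falls of Prkcd, Pde7b, Pde1b, Camk2n1 and Ncald was not tested.

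Of 26 striatal markers 8 were listed, 7 lower and 1 higher, beside 58.1% lower in the whole table. Beside Pde7b, Pde1b and Ppp1r1b themselves, 5 of 23 were listed, all lower: Pdyn (log2 ratio -1.51), Penk (-1.46), Lrrc10b (-0.41), Gng7 (-0.36) and Rasd2 (-0.34), with a sum of 141 units in CI-994 and 203 units in VEH. Pdyn and Penk are on the dentate list as well. Drd1a, Drd2, Adora2a and Rgs9, which define medium spiny neurons, were not in the table, and Ppp1r1b was the 1 striatal marker that was higher. For Prkcd, the other thalamic and habenular markers listed were Slc17a6 (log2 ratio -0.72) and Calb2 (-0.52), both lower, with a sum of 14.2 units in CI-994 and 20.7 units in VEH, while Tcf7l2, Rora and Lef1 were not listed. For Ryr1, 1 of the other 24 muscle markers was listed, Jph1, which was lower (-0.52; 11.2 units in CI-994 and 16.1 units in VEH). Genes of muscle fibres such as Acta1, Ckm and Casq1 were not in the table. A gene outside the table has no value here, so it is not known whether these markers were at 0.

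The largest marker difference in the other direction among these lists was that of the choroid plexus, which makes the fluid of the brain ventricles. Of 30 markers all but Ttr, which has no value here, were listed. These 29 were all higher, against 41.9% of the table, with a median log2 ratio of 2.54. Their summed value was 712 units in CI-994 and 160 units in VEH. Enpp2 alone gave 377 units of the sum in CI-994 and 75.3 units in VEH. The log2 ratios of these markers ran from 1.06 to 4.32. Neither Ryr1 nor Ppp1r1b is on that list, which was written from textbook roles. The part of choroid plexus tissue in the increases of Ppp1r1b and Ryr1 was not tested. The other lists had few genes listed. Of 16 genes on the interneuron list 4 were, with Calb2 (log2 ratio -0.52) and Reln (-0.39) lower, Vip (0.69) and Htr2c (1.12) higher. Htr2c does not define interneurons, and the cells behind its increase were not tested. Of 13 meningeal markers 5 were, Aldh1a2 (-1.15), Fmod (-1.14) and Ptgds (-0.53) lower and Igf2 (1.38) and Igfbp2 (1.24) higher, and these 2 are also on the choroid plexus list. The astrocyte marker Aqp4 (-0.34) and the endothelial Vwf (-0.51) were lower, the oligodendrocyte marker Hapln2 (0.72) and the globin Beta-s (0.60) were higher, and 0 of 10 microglial markers were listed.

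**Figure D4:**
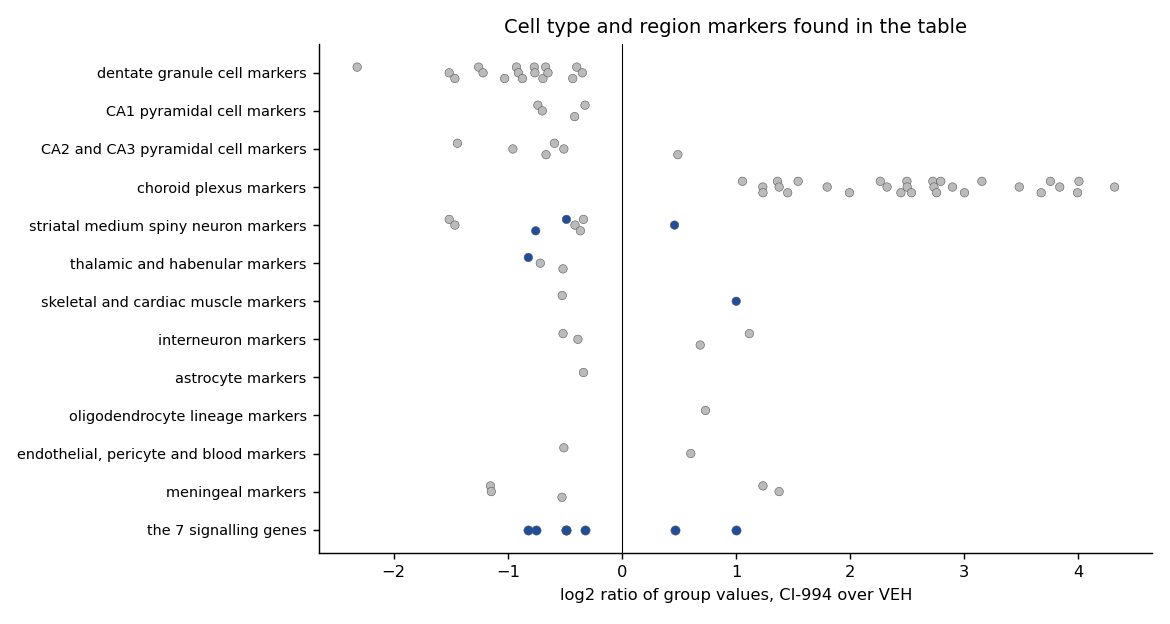
Log2 ratio (CI-994 over VEH) of every listed gene on 12 marker lists, 1 point per gene with small vertical offsets for legibility, and of the 7 genes in the bottom row; genes of the 7 are blue wherever they appear. Dentate granule cell markers lie wholly left of 0, choroid plexus markers wholly right of 0, and the 7 genes between -0.82 and 1.00.

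The 7 loci differ widely in size. In mm9 coordinates of the authors' table, Ncald spans chr15:37295929-37722183, Pde7b chr10:20117809-20444874 and Ryr1 chr7:29788358-29910170, or 426, 327 and 122 kb. Prkcd lies at chr14:31408539-31439394, Pde1b at chr15:103333728-103360483, Ppp1r1b at chr11:98210051-98219109 and Camk2n1 at chr4:138011062-138016041, with spans of 30.9, 26.8, 9.06 and 4.98 kb. Loci over 100 kb thus made up 3 of the 7, against 25.9% of the table, and they include genes of both directions. All 7 are protein-coding, and Ryr1 has 109 separate exon blocks in GENCODE M21 while Camk2n1 has 2.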

How the data were processed

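Total RNA of the hippocampus was sequenced in 3 CI-994 and 3 VEH mice. The authors used mm9 with TopHat and Cuffdiff, per the submitters' processing notes. The sources used here give neither versions and annotation nor normalisation, filters or the treatment of strand. The group values are an expression signal in arbitrary units, deposited as 1 value per gene and group, per the file headers. The log2 ratio and the p-value were also deposited by the authors, and all p-values lie below 0.05. Depth is unknown, and so is how many genes the authors tested. No test of its own was possible on combined values, so a model across mice, foreseen for values per mouse, was not run.

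Log2 ratios were recomputed from the labelled group values without a pseudocount. The members, the 9 signalling lists and the 13 marker lists were chosen with earlier results of these data known, and the lists were written from textbook roles. Named were the 7 genes and every listed gene of the signalling lists. Up to 6 markers a list, by size of log2 ratio, were foreseen for dentate gyrus, striatum, thalamus, choroid plexus and muscle. This was not followed in full for the dentate gyrus and choroid plexus. Dsp (log2 ratio -1.26) and Trpc6 (-1.22) of the dentate list were among those left out of the results. So were Cox8b (4.32) and Tmem72 (4.00) of the choroid plexus list. The 2 genes nearest to each member in level, foreseen in the rule, are not reported, since levels are not compared between genes. Xist, Ddx3y, Enpp2, Prox1 and Prss23, and markers that are not listed, lie outside that rule and were chosen after their values were seen. The same holds for the interneuron, meningeal, astrocyte, oligodendrocyte, endothelial and blood markers. Symbols were matched to GENCODE M21 for exons and to RefSeq for promoters, both on GRCm38, without converting coordinates. Benjamini-Hochberg adjustment and motif search were tested on simulated data. Python 3.11.15, numpy 2.4.6, pandas 2.3.3 and matplotlib 3.10.9 were used.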

Additional observations from a re-analysis of the deposited data

How the results depend on the processing

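No paired analysis was possible because the 3 mice of each group were combined in the deposited values, and for the same reason no mouse could be left out in turn. The 9 signalling lists held 17 lower and 5 higher genes, which became 2 and 3 at p up to 0.001, 4 and 3 for log2 ratios of 0.5 or more in size, and 2 and 3, 1 and 2, and 1 and 2 after Benjamini-Hochberg adjustment over an assumed 10000, 15000 and 20000 tested genes, because each admits fewer genes. In the same settings 43.9%, 46.9%, 42.7%, 41.0% and 37.8% of the genes left in the whole table were lower. At p up to 0.01 the lower genes were 7. In settings chosen after seeing the data, 10 lower and 3 higher were left without genes on a marker list, and 3 higher without the 7 members. Of the 7, 1 lower (Prkcd) and 1 higher gene (Ryr1) remained at p up to 0.001 and after each of those adjustments (adjusted p 0.0474 and 0.0313 over 20000), where 25.9%, 23.2%, 21.1% and 18.9% of the table was left. At a log2 ratio of 0.5, 2 lower and 1 higher remained, where 61.9% of the table was left. When both values had to reach 1 unit, Ryr1 dropped out, leaving 1 higher gene, and 89.9% of the table was left. A pseudocount of 1 took the log2 ratio to -0.61 for Pde7b and 0.52 for Ryr1, as it weighs more on low values. Read by the header of the deposited log2 column every direction is turned around, by construction: the lists then hold 5 lower and 17 higher genes and the members 2 lower and 5 higher, with log2 ratios of 0.82 for Prkcd, 0.76 for Pde7b, 0.49 for Pde1b, -0.46 for Ppp1r1b, -1.001 for Ryr1, 0.32 for Camk2n1 and 0.49 for Ncald. The median of the lists moved by less than 0.1, and the motif counts did not change with the shorter window. Without errors or depth, the order of members with close ratios is descriptive.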
